A study of Mus musculus with 12 samples.

Results

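The 8 genes described here encode secreted or surface proteins of the nodal and activin loop: the ligands Nodal and Gdf3, the co-receptor Tdgf1, and the antagonists Lefty1, Lefty2, Cer1, Dand5 and Fst. They were taken by symbol, with every probe set that the platform table assigns to them, which gave 12 of the 45101 probe sets on the arrays. Lefty1, Lefty2, Tdgf1 and Dand5 had 1 probe set each, and Nodal, Gdf3, Cer1 and Fst had 2. The brighter probe set stood for its gene among 18193 genes. All 8 genes were kept in every test, since no filter on signal was applied.

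Nodal and activin bind type II and type I activin receptors, which phosphorylate Smad2 and Smad3; these enter the nucleus with Smad4. Nodal also needs an EGF-CFC co-receptor, of which Tdgf1 (Cripto) is one, whereas activin does not. Lefty proteins, Cer1 and Dand5 hold nodal back outside the cell, and follistatin (Fst) binds and blocks activin; Nodal and the Lefty genes are textbook targets of the pathway itself, which makes it a loop. In the early mouse embryo this loop patterns the epiblast and the primitive streak.

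Embryoid bodies, which are floating aggregates of differentiating embryonic stem cells, were grown from mouse cells of strain 129 without LIF and used at day 2.5. The lines were Smad4-null, Trim33-KD (in which Trim33 is knocked down) and wild type (WT). Smad4-null-ac, Trim33-KD-ac and WT-ac received activin at 50 ng/ml for 2 h. Smad4-null-SB, Trim33-KD-SB and WT-SB received SB431542, which blocks the kinases of the type I receptors of activin and nodal, for 2 h at what the labels give as 10 mM. Each of these 6 groups had 2 Affymetrix arrays. There was no group without treatment, so a response below is the log2 signal with activin minus that with SB431542, and the parts of the agonist and of the inhibitor cannot be told apart. Genotype and cell line changed together, and whether the 2 arrays of a group came from separate cultures is not stated. If they did not, the p-values measure the spread between these samples only.

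The arrays were alike in scale, with medians of 5.85 to 6.30 log2 units, and Pearson correlations between arrays of 0.936 to 0.994. The spread of log2 signal was narrower on Smad4-null-ac replicate 1 (SD 3.13) and on WT-SB replicate 2 (SD 3.07) than on the other arrays (SD 3.24 to 3.39). Signs of RNA quality also differed: 18S rRNA signal averaged 5.53 and 5.82 on the WT arrays numbered 1, against 7.56 to 10.16 elsewhere. The 3' minus 5' difference of Actb was highest on the SB431542 arrays numbered 2 of Trim33-KD (0.74) and of WT (0.67), while the others had 0.31 to 0.53. The part of these in the results was not tested beyond the alternative settings named below, such as array weights and leaving out each array or both narrow-spread arrays. Trim33 signal on its brightest probe set was 34.4% of WT in Trim33-KD. In Smad4-null the 3 Smad4 probe sets read 101%, 110% and 115% of WT, so they give no check of that label. A list of 7 measured primitive streak and mesendoderm genes summed to a linear signal of 361 to 553 in Smad4-null arrays, 1382 to 5347 in Trim33-KD arrays and 3023 to 8321 in WT arrays. The summed signal of 6 trophectoderm genes was 11224 and 11401 on the Trim33-KD arrays numbered 2, against 3724 to 5735 on the other arrays. Fibroblast genes, as markers of feeder cells, summed to 502 to 634 on every array.

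Promoters in the RefSeq table (build GRCm38.p6) matched 4 of the 8 genes. The 250 bases before the start of transcription are shown for the 3 of these genes that were lower in Smad4-null embryoid bodies: Nodal on the plus strand of chr10:61417722-61417971, and Tdgf1 and Cer1 on the minus strands of chr9:110946159-110946408 and chr4:82885152-82885401. Capitals mark matches, on either strand, to a FOXH1 motif (TGTNNATT, in which N stands for any base) or to the SMAD box (CAGAC).

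Nodal: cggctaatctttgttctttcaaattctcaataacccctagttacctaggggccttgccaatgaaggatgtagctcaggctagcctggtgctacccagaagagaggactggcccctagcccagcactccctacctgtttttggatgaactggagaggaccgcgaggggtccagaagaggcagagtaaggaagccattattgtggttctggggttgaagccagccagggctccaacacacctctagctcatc

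Tdgf1: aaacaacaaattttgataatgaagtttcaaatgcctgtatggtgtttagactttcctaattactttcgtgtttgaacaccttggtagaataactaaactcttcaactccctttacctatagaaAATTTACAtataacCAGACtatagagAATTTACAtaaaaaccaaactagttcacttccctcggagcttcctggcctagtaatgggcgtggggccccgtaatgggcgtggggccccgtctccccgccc

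Cer1: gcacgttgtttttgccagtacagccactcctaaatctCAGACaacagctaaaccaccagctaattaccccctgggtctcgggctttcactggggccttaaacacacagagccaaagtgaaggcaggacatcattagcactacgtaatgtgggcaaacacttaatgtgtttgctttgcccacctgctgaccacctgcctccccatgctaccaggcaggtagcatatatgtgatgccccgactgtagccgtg

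FOXH1 is a DNA-binding partner of Smad2 and Smad4. The letters searched for it were found only in the Tdgf1 window among these 3. There were 2 matches on the opposite strand, at bases 127 to 120 and 101 to 94 before the start. Both read AATTTACA and match through the free middle bases, and whether FOXH1 accepts those bases was not tested. A SMAD box lay between them, at bases 113 to 109. The Cer1 window had a SMAD box at bases 213 to 209. The Nodal window held neither motif. The window of Dand5, the other gene matched, is not shown, and Dand5 was not lower in Smad4-null. It had a SMAD box on the opposite strand, at bases 174 to 170, and no FOXH1 motif. Of 32851 promoters in the table, 10.9% had the FOXH1 motif and 42.2% the SMAD box in a window of this length. A match in these letters describes the sequence and says nothing of binding.

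Responses to activin were described first, over the ligands. Nodal had a log2 signal of 11.37 and 11.32 in Smad4-null-ac arrays, against 10.88 and 10.85 in Smad4-null-SB arrays. In Trim33-KD-ac arrays it had 12.42 and 12.28, against 11.75 and 11.53 in Trim33-KD-SB arrays. WT-ac arrays had 11.79 and 12.14, and WT-SB arrays had 11.17 and 11.67. Both activin arrays lay above both SB431542 arrays in every line, by a small margin in WT. The response was 0.48 in Smad4-null, 0.71 in Trim33-KD and 0.55 in WT (SE 0.19 each), with limma adjusted p of 0.704, 0.881 and 1.0. Averaged over the lines it was 0.58 (95% interval 0.32 to 0.84, 1.5-fold, adjusted p = 0.276) and did not pass the threshold of 0.05. It passed when only the upper 50% of genes by signal was tested (adjusted p = 0.0315). The dimmer Nodal probe set gave 0.53, 0.66 and 0.69 for the same lines.

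Gdf3, a ligand that also uses the EGF-CFC co-receptors, hardly differed between treatments. Its log2 signal was 11.45 and 11.18 in Smad4-null-ac arrays, against 11.14 and 11.15 in Smad4-null-SB arrays. Trim33-KD-ac arrays had 10.39 and 10.72 and Trim33-KD-SB arrays 10.38 and 10.50, while WT-ac arrays had 10.22 and 10.17 and WT-SB arrays 9.99 and 10.13. The treatments overlapped in Trim33-KD only, and the responses of 0.17, 0.12 and 0.13 (SE 0.15 each) all had 95% intervals that span 0 (-0.18 to 0.52 in Smad4-null).

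Tdgf1, the co-receptor, was bright on all arrays and changed little with treatment. It had 12.20 and 12.44 in Smad4-null-ac arrays, against 12.41 and 12.47 in Smad4-null-SB arrays. Trim33-KD-ac arrays had 13.11 and 12.85, against 12.56 and 12.65 in Trim33-KD-SB arrays, and WT-ac arrays had 13.17 and 13.26, against 13.02 and 12.87 in WT-SB arrays. Activin arrays were above SB431542 arrays in Trim33-KD (0.38, SE 0.14, adjusted p = 1.0) and WT (0.27, adjusted p = 1.0), whereas the Smad4-null arrays overlapped. The WT response had a 95% interval of -0.05 to 0.59.

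The largest response among the antagonists was that of Lefty1, an inhibitor of nodal made by visceral endoderm and the midline of the embryo. Lefty1 had a log2 signal of 13.79 and 13.58 in Smad4-null-ac arrays, against 12.40 and 12.46 in Smad4-null-SB arrays. In Trim33-KD-ac arrays it had 13.51 and 13.70, against 11.50 and 12.09 in Trim33-KD-SB arrays. WT-ac arrays had 13.16 and 13.13, and WT-SB arrays had 10.62 and 10.05. The activin arrays of all 3 lines lay close together, between 13.13 and 13.79, while the SB431542 arrays spread from 10.05 to 12.46, lowest in WT. Lefty1 rose by 2.81 in WT (SE 0.24, 7.01-fold, adjusted p = 0.0222). In Smad4-null the response was 1.26 (2.39-fold, adjusted p = 0.311) and in Trim33-KD it was 1.81 (3.5-fold, adjusted p = 0.151), and neither passed. Over the 3 lines Lefty1 rose by 1.96 (SE 0.14, adjusted p = 0.00661).

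The WT response of Lefty1 lay between 2.52 and 3.10 under 26 alternatives, of which 18 ended the call. It was lost on leaving out either WT-ac array (2.79 and 2.83, adjusted p = 0.189 and 0.210), WT-SB replicate 2 (2.52, adjusted p = 0.0745), or any one of the Smad4-null arrays or the Trim33-KD-ac arrays (2.81, adjusted p = 0.0548 to 0.0828). With the replicate number as a block the response was again 2.81 with an adjusted p of 0.0742. No single array ended the call over the 3 lines. Leaving out both narrow-spread arrays did (1.83, adjusted p = 0.0647), as did leaving out both Trim33-KD arrays numbered 2 (2.03, adjusted p = 0.0617). A block on the replicate number within each line also ended it at the same size (1.96, adjusted p = 0.0890), and so did that block with the Smad4-null numbers crossed (adjusted p = 0.118). Array deviations of the same number correlated between the activin and SB431542 groups at -0.19 in Smad4-null, 0.34 in Trim33-KD and 0.39 in WT.

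Lefty2, the other nodal antagonist of this family, had a smaller response. In Smad4-null-ac arrays it had 10.04 and 10.18, against 9.55 and 9.56 in Smad4-null-SB arrays. Trim33-KD-ac arrays had 11.14 and 11.23, against 9.81 and 10.14 in Trim33-KD-SB arrays. In WT-ac arrays Lefty2 had 10.26 and 10.55, against 9.28 and 9.14 in WT-SB arrays. The treatments did not overlap in any line, and the gap was narrowest in Smad4-null. The response was 0.56 in Smad4-null (adjusted p = 0.551), 1.21 in Trim33-KD (adjusted p = 0.131) and 1.2 in WT (adjusted p = 0.128; SE 0.15 each). Over the 3 lines Lefty2 rose by 0.99 (SE 0.09, 1.98-fold, adjusted p = 0.0110). That call was lost (0.94 to 1.01, adjusted p = 0.0513 to 0.0712) on leaving out any one of WT-SB replicate 1, WT-SB replicate 2, WT-ac replicate 2, Trim33-KD-ac replicate 1, Smad4-null-ac replicate 1 and both Smad4-null-SB arrays. The block within each line ended it too (adjusted p = 0.201). Among the upper 50% of genes by signal Lefty2 passed in Trim33-KD (adjusted p = 0.0033) and in WT (adjusted p = 0.0035). Lefty1 and Lefty2 have similar sequences, and how far their probes cross-hybridize was not tested.

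Cer1 and Fst showed no response of comparable size. Cer1 encodes a secreted protein that binds nodal and is made by anterior visceral and definitive endoderm. It had 4.14 and 3.78 in Smad4-null-ac arrays, against 3.72 and 4.17 in Smad4-null-SB arrays, and 8.01 and 6.74 in Trim33-KD-ac arrays, against 7.94 and 6.80 in Trim33-KD-SB arrays. WT-ac arrays had 7.57 and 7.66 and WT-SB arrays 7.34 and 6.92, a response of 0.48 (95% interval -0.66 to 1.63). Both treatments overlapped in the 2 mutant lines.

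Fst had 8.0 and 8.19 in Smad4-null-ac arrays, against 7.78 and 7.40 in Smad4-null-SB arrays, a response of 0.50 (95% interval -0.33 to 1.33). Trim33-KD-ac arrays had 11.97 and 11.38, against 12.42 and 11.35 in Trim33-KD-SB arrays. In WT-ac arrays Fst had 12.40 and 12.50, just below the 12.54 and 12.81 of WT-SB arrays (-0.22, 95% interval -1.05 to 0.61). Fst was thus the only one of the 8 genes whose WT-ac arrays both lay below the WT-SB arrays.

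Dand5, an antagonist known from the left-right axis, was dim. It had 5.92 and 5.28 in Smad4-null-ac arrays, 4.98 and 5.68 in Smad4-null-SB arrays, 2.79 and 5.07 in Trim33-KD-ac arrays, 5.15 and 5.06 in Trim33-KD-SB arrays, 5.33 and 4.45 in WT-ac arrays, and 2.86 and 3.37 in WT-SB arrays. Every value is under 6, that is, under a linear signal of 64. The WT difference of 1.78 (95% interval 0.14 to 3.41) had an adjusted p of 1.0, and with a floor of 64 nothing of it is left.

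**Figure D1:**
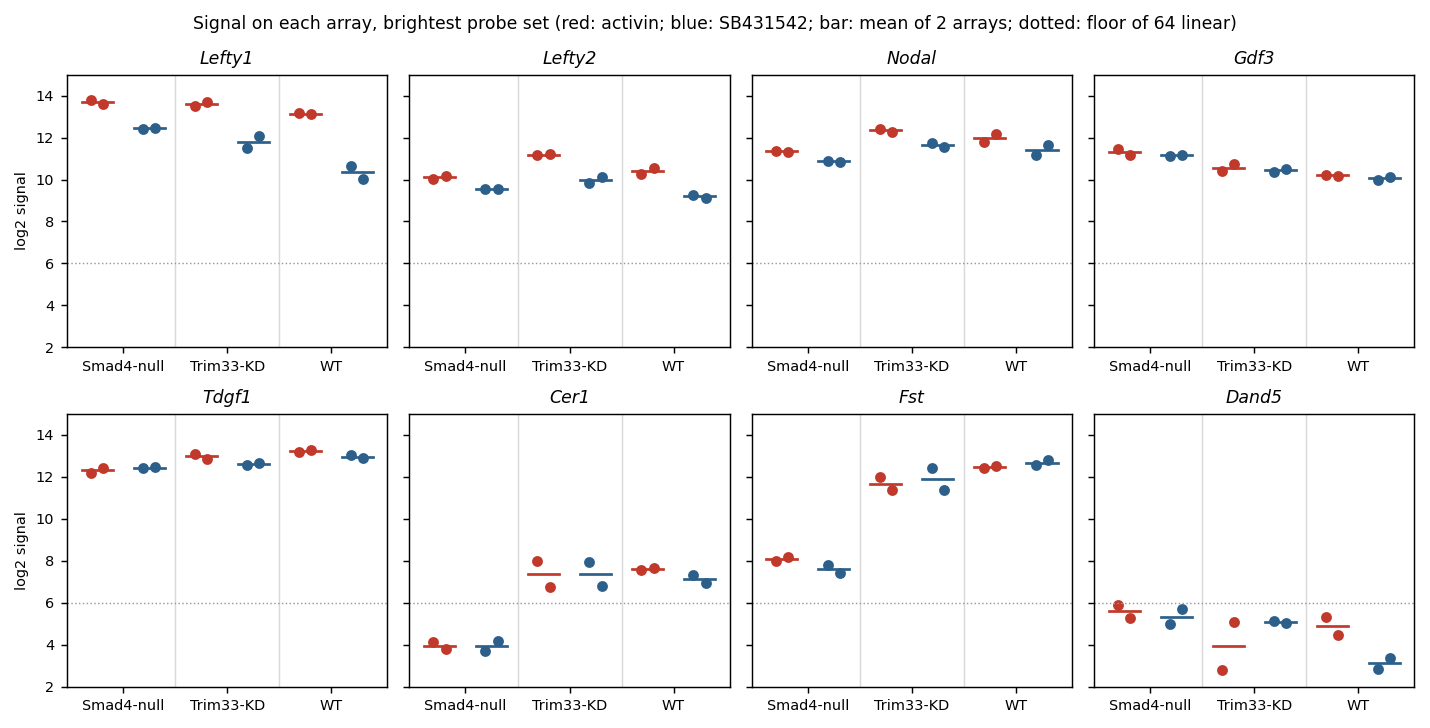
Log2 signal (vertical axis) of the brightest probe set of each gene on each of the 12 arrays, by line and treatment, with activin in red, SB431542 in blue and a bar at the mean of 2 arrays. Lefty1 reads 13.13 to 13.79 with activin in all lines, Cer1 and Fst are low in Smad4-null, and all Dand5 points are under the dotted line at 6.

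Counted over the 8 genes, 0 of 8 passed by limma in Smad4-null and 0 of 8 in Trim33-KD, where 0.011% of all genes did in each. In WT 1 of 8 passed, Lefty1, where 0.033% of all genes did. An unadjusted limma p under 0.05 was found for 3 of 8 genes in Smad4-null, 4 of 8 in Trim33-KD and 4 of 8 in WT. The 4 in WT include Dand5, whose signals were all under 64. Over all genes the unadjusted shares were 6.81%, 4.21% and 4.02%. For the mean of the 3 responses 2 of 8 passed, Lefty1 and Lefty2, where 0.0824% of all genes did. Both activin arrays lay above both SB431542 arrays for 5 of 8 genes in Smad4-null, 4 of 8 in Trim33-KD and 7 of 8 in WT. The same held for 28.7%, 10.8% and 9.66% of all genes. The WT count includes Dand5, whose signals were all under 64, and Gdf3, whose difference was 0.13. The medians of the 8 genes include Dand5 too. The median response of the 8 genes was 0.37 in Smad4-null, 0.25 in Trim33-KD and 0.52 in WT, against 0.06, -0.05 and -0.05 over all genes.

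**Figure D2:**
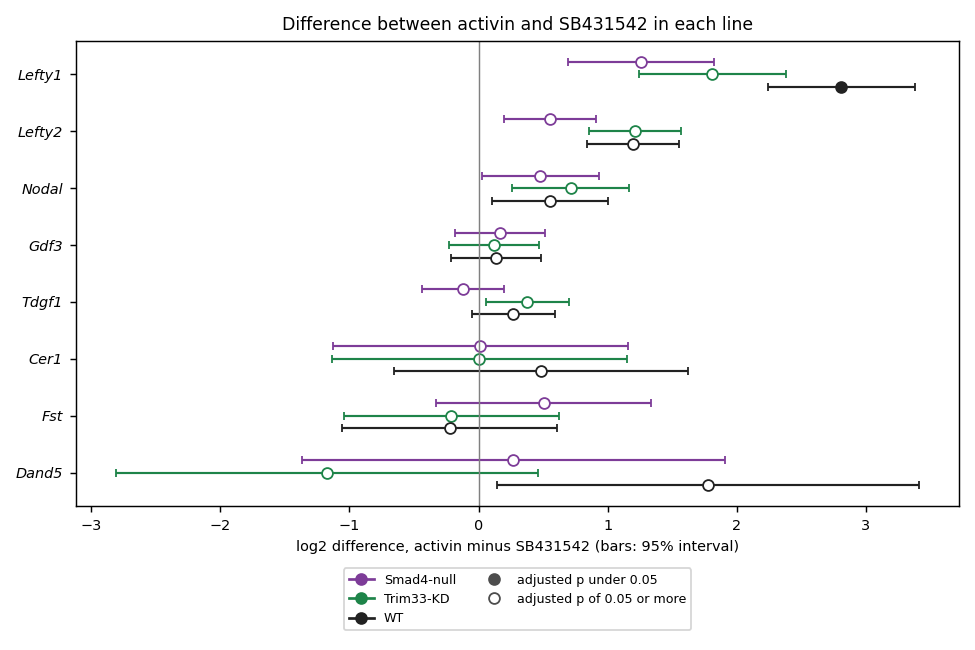
Response of each gene, as log2 signal with activin minus SB431542 (horizontal axis), with 95% intervals, in Smad4-null, Trim33-KD and WT. Filled points passed an adjusted p of 0.05, which in a single line holds for Lefty1 in WT (2.81) and for no other point.

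Whether the lines differed in their responses was tested directly. The Lefty1 response in Smad4-null minus that in WT was -1.55 (95% interval -2.35 to -0.75, adjusted p = 0.376), and in Trim33-KD minus WT it was -1.0 (95% interval -1.80 to -0.20, adjusted p = 1.0). For Lefty2 the difference was -0.64 in Smad4-null (95% interval -1.15 to -0.13, adjusted p = 0.604) and 0.01 in Trim33-KD (95% interval -0.49 to 0.52). Nodal had -0.07 (95% interval -0.71 to 0.57) and 0.16 (95% interval -0.48 to 0.80) for these comparisons, and Tdgf1 had -0.39 in Smad4-null (95% interval -0.84 to 0.06). By limma 0 of 8 genes passed in either comparison, and so did 0% of all genes. An unadjusted p under 0.05 was found for 2 of 8 genes in each, and for 7.24% and 2.67% of all genes. These were Lefty1 and Lefty2 in Smad4-null, and Lefty1 and Dand5 in Trim33-KD. All Dand5 signals were under 64.

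The lines were then compared at each treatment. Lefty1 was higher in Smad4-null than in WT where the receptor was blocked. It averaged 12.43 ± 0.04 in Smad4-null-SB arrays and 10.33 ± 0.41 in WT-SB arrays (log2 mean ± SD, n = 2 each), so that it rose by 2.10 (SE 0.24, 4.27-fold, adjusted p = 0.00401). With activin it averaged 13.69 ± 0.15 in Smad4-null-ac arrays and 13.14 ± 0.02 in WT-ac arrays, a difference of 0.54 (95% interval -0.02 to 1.11, adjusted p = 0.222). Averaged over treatments Lefty1 rose by 1.32 (SE 0.17, adjusted p = 0.00229). In Trim33-KD Lefty1 was also above WT with SB431542, at 11.80 ± 0.42 in Trim33-KD-SB arrays and 10.33 ± 0.41 in WT-SB arrays, with no overlap between the groups, but the difference of 1.46 (95% interval 0.89 to 2.03) had an adjusted p of 0.152. With activin the difference was 0.46 (adjusted p = 0.654). Both comparisons share the WT arrays.

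For Lefty2 the Smad4-null arrays lay on either side of WT, depending on the treatment. In Smad4-null it was 0.35 above WT with SB431542 (95% interval -0.01 to 0.71) and 0.29 below WT with activin (95% interval of the difference -0.65 to 0.07). In Trim33-KD it stood above WT in both treatments, by 0.77 with SB431542 (adjusted p = 0.203) and 0.78 with activin (adjusted p = 0.226), with no overlap of arrays in either. Averaged over treatments Lefty2 rose by 0.78 in Trim33-KD (SE 0.11, 1.71-fold, adjusted p = 0.0365). This call was lost on leaving out any one of the 12 arrays (0.69 to 0.86, adjusted p = 0.0545 to 0.145). Without both Trim33-KD arrays numbered 2, which carry the high trophectoderm signal, the value was 0.67 (adjusted p = 0.234).

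Of the ligands, Gdf3 was higher and Nodal lower in Smad4-null. Gdf3 averaged 11.31 ± 0.19 in Smad4-null-ac arrays and 10.19 ± 0.03 in WT-ac arrays, and 11.14 ± 0.01 in Smad4-null-SB arrays and 10.06 ± 0.09 in WT-SB arrays. No Smad4-null array overlapped a WT array. Gdf3 rose by 1.12 with activin (2.17-fold, adjusted p = 0.00608) and by 1.08 with SB431542 (2.12-fold, adjusted p = 0.00702; SE 0.15 each). Without both narrow-spread arrays the difference with activin was 0.98 and that call was lost. The call with SB431542 was lost without Smad4-null-SB replicate 2 (1.08, adjusted p = 0.0534). Averaged over treatments Gdf3 rose by 1.10 (SE 0.11, adjusted p = 0.000653), and its dimmer probe set gave 1.27 (adjusted p = 0.00147 over all probe sets). In Trim33-KD Gdf3 was 0.37 above WT (95% interval 0.13 to 0.62, adjusted p = 0.161), with 0.36 with activin and 0.38 with SB431542.

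Nodal averaged 11.34 ± 0.03 in Smad4-null-ac arrays and 11.97 ± 0.25 in WT-ac arrays, and 10.86 ± 0.02 in Smad4-null-SB arrays and 11.42 ± 0.35 in WT-SB arrays. Within either treatment the lines did not overlap, but the differences of -0.62 (adjusted p = 0.0936) and -0.55 (adjusted p = 0.130) did not pass. Averaged over treatments Nodal fell by 0.59 in Smad4-null (SE 0.14, to 66.5% of WT, adjusted p = 0.0233). Without both narrow-spread arrays this difference was -0.47 and the call was lost. That call was lost without WT-ac replicate 2 (-0.50, adjusted p = 0.0709) and without any one Smad4-null array (-0.60 to -0.58, adjusted p = 0.0614 to 0.0751). The dimmer Nodal probe set fell by 1.11 (adjusted p = 0.00614 over all probe sets). Within a treatment its limma difference was -1.19 with activin (adjusted p = 0.0362 over all probe sets). With SB431542 it was -1.02 (adjusted p = 0.0574), which did not pass. For Trim33-KD minus WT the probe sets differed in sign, with 0.30 on the brighter (95% interval -0.02 to 0.62) and -0.10 on the dimmer, so no direction is given.

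**Figure D3:**
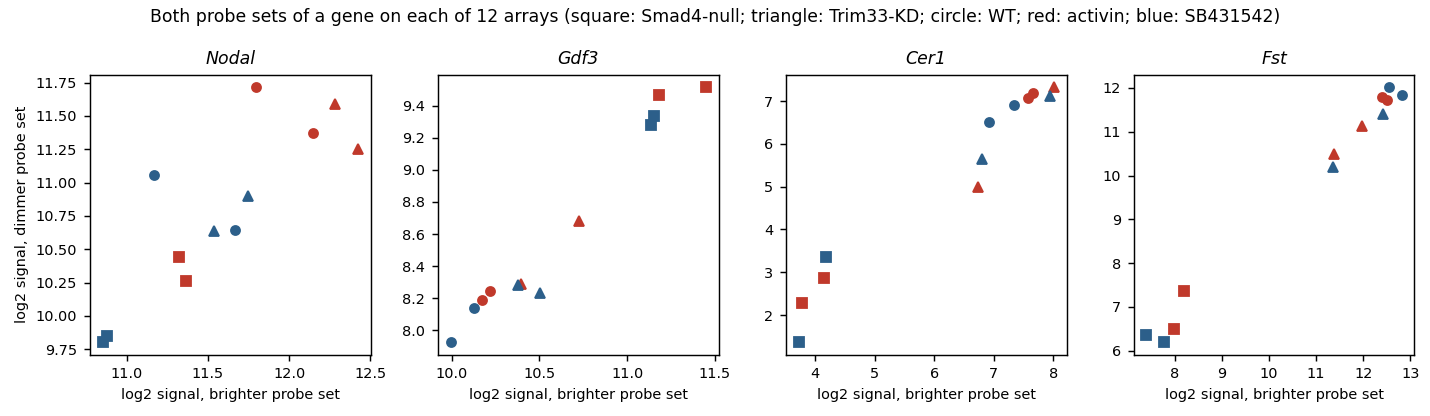
Log2 signal of the dimmer (vertical axis) against the brighter probe set (horizontal axis) of Nodal, Gdf3, Cer1 and Fst on the 12 arrays, with squares for Smad4-null, triangles for Trim33-KD and circles for WT, red for activin and blue for SB431542. For Gdf3, Cer1 and Fst the Smad4-null squares stand apart from the other arrays on both probe sets, while for Nodal the order of Trim33-KD and WT arrays depends on the probe set.

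Tdgf1 was lower in Smad4-null. It averaged 12.32 ± 0.17 in Smad4-null-ac arrays and 13.22 ± 0.07 in WT-ac arrays, and fell by 0.90 (SE 0.14, to 53.7% of WT, adjusted p = 0.00973). Without both narrow-spread arrays this difference was -0.77 and the call was lost. This call was lost without either WT-ac array (-0.94 and -0.85, adjusted p = 0.0516 and 0.0627) or Smad4-null-ac replicate 1 (-0.77, adjusted p = 0.0601). With SB431542 it averaged 12.44 ± 0.05 in Smad4-null-SB arrays and 12.95 ± 0.10 in WT-SB arrays, a difference of -0.51 (adjusted p = 0.0651) that did not pass. Averaged over treatments Tdgf1 fell by 0.70 (SE 0.10, adjusted p = 0.0029), with all Smad4-null arrays below all WT arrays. In Trim33-KD the difference from WT was -0.29 (95% interval -0.52 to -0.06, adjusted p = 0.205).

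Of the 8 genes, Fst and Cer1 differed most between Smad4-null and WT. Fst averaged 8.09 ± 0.14 in Smad4-null-ac arrays and 12.45 ± 0.07 in WT-ac arrays, and fell by 4.36 (adjusted p = 0.00108). With SB431542 it averaged 7.59 ± 0.27 in Smad4-null-SB arrays and 12.68 ± 0.19 in WT-SB arrays, and fell by 5.09 (adjusted p = 0.000813; SE 0.36 each). On the linear scale, Fst in Smad4-null was 4.87% of WT with activin and 2.94% with SB431542. Averaged over treatments Fst fell by 4.72 (SE 0.25, adjusted p = 8.21e-05), and only 4 genes of 18193 had a more negative value. The dimmer Fst probe set fell by 5.24 (adjusted p = 0.000314 over all probe sets). In Trim33-KD Fst was 0.79 below WT (95% interval of the difference -1.37 to -0.20, adjusted p = 0.193), and without both arrays numbered 2 the difference was -0.37.

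Cer1 averaged 3.96 ± 0.26 in Smad4-null-ac arrays and 7.62 ± 0.07 in WT-ac arrays, and fell by 3.65 (SE 0.49, adjusted p = 0.00613). With SB431542 it averaged 3.95 ± 0.32 in Smad4-null-SB arrays and 7.13 ± 0.29 in WT-SB arrays, and fell by 3.18 (adjusted p = 0.0101). Without both narrow-spread arrays the calls in both treatments were lost, at -3.84 with activin and -3.39 with SB431542. The call with SB431542 was lost without Smad4-null-SB replicate 1 (-2.96, adjusted p = 0.0687) or replicate 2 (-3.41, adjusted p = 0.0508). Averaged over treatments Cer1 fell by 3.42 (SE 0.35, adjusted p = 0.000818), and its dimmer probe set by 4.45 (adjusted p = 0.00653 over all probe sets). The Smad4-null signal of Cer1 was under 64 on all 4 arrays, so the size depends on how low values are treated: with a floor of 64 the difference was -1.37 over treatments, still past the threshold, -1.62 with activin (adjusted p = 0.101) and -1.13 with SB431542 (adjusted p = 0.251). In Trim33-KD the arrays numbered 1 had 8.01 and 7.94, and those numbered 2 had 6.74 and 6.80, above and below the 6.92 to 7.66 of WT. The same numbered arrays had 5347 and 2334, against 2841 and 1382, for the summed mesendoderm signal. The part of this split in the values was not tested.

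Dand5 in Smad4-null was 0.71 above WT with activin (adjusted p = 0.583) and 2.22 above WT with SB431542 (adjusted p = 0.0988), all at signals under 64. Averaged over treatments the difference was 1.46 (95% interval 0.31 to 2.62, adjusted p = 0.0856). Dand5 lies on chromosome 8, and no other of the 8 genes does. Whether its position has a part in these values was not tested.

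**Figure D4:**
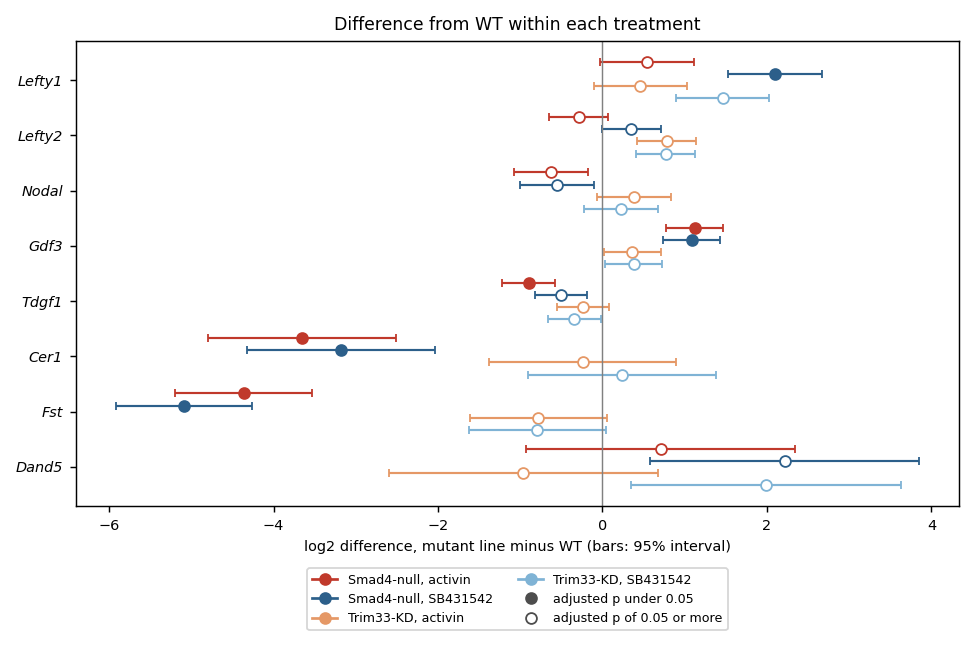
Log2 difference of Smad4-null or Trim33-KD from WT (horizontal axis) within activin and within SB431542, with 95% intervals; filled points passed an adjusted p of 0.05. Fst (-4.36 and -5.09) and Cer1 (-3.65 and -3.18) lie far to the left in Smad4-null, Gdf3 lies to the right in both treatments, and no Trim33-KD point is filled.

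In counts, 4 of 8 genes passed for Smad4-null against WT with activin, where 9.29% of all genes did, and 4 of 8 with SB431542, where 9.1% of all genes did. Averaged over treatments 6 of 8 passed, with Lefty1 and Gdf3 higher and Nodal, Tdgf1, Cer1 and Fst lower, where 18.4% of all genes did. For Trim33-KD 0 of 8 passed by limma with activin, where 0.0055% of all genes did, and 0 of 8 with SB431542, where 0% did. An unadjusted p under 0.05 was found for 2 of 8 with activin and 5 of 8 with SB431542. The 5 with SB431542 include Dand5, whose signals were all under 64. Over all genes these unadjusted shares were 8.57% and 10.8%. Averaged over treatments 1 of 8 passed, where 0.649% of all genes did. When only the 4 arrays compared entered the fit, 0 of 8 genes passed in each of the Smad4-null comparisons within a treatment, and so did 0 of all 18193 genes, so that setting says nothing of these 8.

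Other genes of the pathway, from lists of their roles, were compared between Smad4-null and WT, averaged over treatments, where 18.4% of all genes passed (1295 higher and 2061 lower). Counts of 1 in a short list are near that share. Of 7 other ligands measured, Tgfb1 (-0.96) was lower and none was higher. Of 3 convertases, which cut ligand precursors, Furin (-0.79) was lower. Of 8 receptors and co-receptors 3 were lower, namely the type III receptor Tgfbr3 (-2.99), the TGF-beta type II receptor Tgfbr2 (-1.20) and the activin and nodal type I receptor Acvr1b (-0.45). Of 11 other secreted or surface antagonists, the Wnt and BMP antagonists Nbl1 (-2.09), Dkk1 (-1.94) and Chrd (-1.14) were lower and Sfrp1 (1.18) was higher. Of 7 transducers and nuclear partners, Eomes (-3.65), Foxh1 (-0.60) and Tgif2 (-0.38) were lower and Smad2 (0.25) was higher. Of 7 feedback inhibitors inside the cell, Pmepa1 (-1.11), Smad7 (-1.06) and Smad6 (-0.87) were lower and Skil (0.45) was higher. In the WT response, 2 of these 7 passed, Smad7 (3.11) and Pmepa1 (2.08), and no measured gene of the other 5 pathway lists did. With the replicate block within a line, or with the groups compared alone, 0 of all genes passed in the WT response. Both calls were thus lost in those settings. For Trim33-KD minus WT 0 genes of the 6 pathway lists passed.

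Cell type marker lists were read in the same comparison, beside the same 18.4% of all genes. For Smad4-null minus WT all 7 measured mesendoderm genes were lower (median log2 difference -3.84), and 7 of 10 naive pluripotency genes were higher and 1 lower. The naive list summed to 19741 to 23173 in Smad4-null arrays, 12536 to 14984 in Trim33-KD arrays and 11502 to 13124 in WT arrays. Of 12 extraembryonic endoderm genes 5 were lower, Foxa2 (-1.97), Gata6 (-1.50), Sox7 (-1.34), Sox17 (-1.18) and Hhex (-0.83). Of 6 primed epiblast genes 3 were higher and 1 was lower, of 6 neuroectoderm genes 1 was higher and 1 lower, of 6 trophectoderm genes 1 was lower, and of 7 fibroblast genes 1 was higher and 2 lower. The 1 of 6 for trophectoderm is near the share over all genes. For Trim33-KD minus WT only Otx2 (-0.95) and Pax6 (-0.80) of all marker lists passed, both lower. In these bulk samples fewer cells of a type and less RNA per cell cannot be told apart, and what part the mesendoderm and naive signals have in the values of Cer1, Fst and the other genes was not tested.

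**Figure D5:**
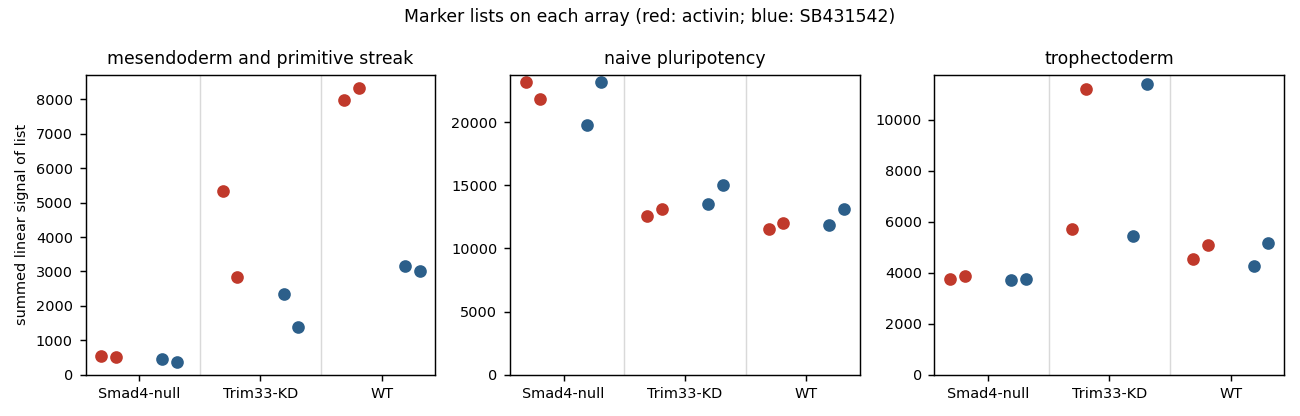
Summed linear signal (vertical axis, from 0) of the mesendoderm, naive pluripotency and trophectoderm lists on each of the 12 arrays, by line, with activin in red and SB431542 in blue. Mesendoderm genes are lowest in Smad4-null (361 to 553), naive genes highest there, and the trophectoderm sum is highest on the 2 Trim33-KD arrays numbered 2.

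Genes with a like pattern over the 6 group means were looked up for those of the 8 genes that spanned at least 2 log2 units, by the root mean square difference of centred means over 9091 genes. For Lefty1 these were Hes1 (0.45), Zfp819 (0.53) and Irf1 (0.61), against a median of 1.19 over the genes compared. Cer1 was matched more closely, by Nab1 (0.12), Wnt8a (0.12) and Nt5e (0.16; median 1.61). Fst had Mid1 (0.34), Cdh11 (0.45) and Nt5e (0.47; median 2.07). The dim Dand5 had Cyct (0.53), Stk10 (0.54) and Folr1 (0.57; median 0.88). The spans were 3.35 for Lefty1, 3.67 for Cer1, 5.09 for Fst and 2.49 for Dand5. Lefty2 (1.98), Nodal (1.49), Gdf3 (1.25) and Tdgf1 (0.90) stayed under the minimum. Cer1 reached the minimum only through its Smad4-null signals, all under 64, so its matches depend on how low values are treated. All Dand5 signals were under 64, so its list describes only values under that floor.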

How the data were processed

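Total RNA of the 12 samples was hybridized to Affymetrix mouse arrays, 1 per sample. The authors deposited log2 signals, 1 per probe set and array, as the labels say. How probes were summarized is not given in sources used here; the arrays share a trimmed mean on the linear scale. The submitters' processing notes name limma without a version. The log2 values were used unchanged, and precision is limited by the number of arrays. A means model over all 12 arrays and 6 groups was fitted in R 4.3.3 with limma 3.58.1 (lmFit, eBayes with the default prior), with Benjamini-Hochberg adjustment over 18193 genes, a threshold of 0.05 and 12 comparisons. The residual degrees of freedom were 6. The brightest of a gene's probe sets stood for it; 34945 probe sets had 1 symbol, and the 932 with several were left out. Symbols come from the platform table and RefSeq. The fit was tested on simulated data. Plotting used matplotlib 3.10.9 under Python 3.11.15.

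The 8 genes, the 6 pathway lists and the 7 marker lists were chosen with earlier results of these data known. Named in the text were all 8 genes, Smad4, Trim33, up to 6 genes past the threshold of a list, and the 3 genes of most like pattern. The settings tried were array weights, a floor of 64, median centring, quantile normalization, a trended and robust prior, the upper 50% of genes, all probe sets, the averaged probe sets of each gene, a replicate block for all arrays or within a line, the groups compared alone, and leaving out the narrow-spread arrays or each array. Chosen after seeing the data were crossed replicate numbers and leaving out both Trim33-KD arrays numbered 2. Deviations of arrays with the same number correlated between -0.30 and 0.39 across groups. The highest values were those within WT (0.39) and within Trim33-KD (0.34), while Smad4-null had -0.19. The numbers are not stated to mark a shared culture or day. Pairing by number was therefore left out of the main fit and entered only as the block settings. The promoter windows are from RefSeq, GRCm38.p6.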

Additional observations from a re-analysis of the deposited data

How the results depend on the processing

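The 66 single differences printed above were recomputed under up to 26 alternatives, 1630 values in all, of which 1501 kept direction and side of the threshold, 81 lost a call, 36 gained one and 12 changed sign. The sign changes were of differences that did not pass: Lefty2 in Trim33-KD minus WT response (-0.0082 with quantile normalization, -0.11 with median centring, and -0.15 to 0.18 without one array), Nodal in Smad4-null minus WT response (-0.32 to 0.18 without one array) and in Trim33-KD minus WT response (-0.088 without both narrow-spread arrays, -0.088 to 0.41 without one array), and the Gdf3 response in Trim33-KD (-0.048 to 0.28 without one array). Median centring moved the median of all genes by up to 0.28 on the log2 scale.

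Counts of the 8 genes moved as follows; beyond fewer genes or arrays in a fit, the cause was not tested. The WT response count of 1 became 0 with median centring, a floor of 64, a replicate block for all arrays or within a line, crossed numbers, all probe sets, the groups compared alone, and without the narrow-spread arrays or both Trim33-KD arrays numbered 2; it became 2 with the upper 50% of genes or a trended and robust prior, and ran from 0 to 1 without one array. The upper 50% of genes and the trended and robust prior each gave 2 in the Trim33-KD response, against 0. They also each gave 2 in Trim33-KD minus WT with SB431542 and 1 with activin, against 0. The mean response count of 2 was 3 with each of those last settings (of which the upper 50% tests 6 of the 8 genes), 1 with median centring, 0 with either block within a line and without the arrays named, and 1 to 2 without one array. Smad4-null minus WT with SB431542 had 0 in place of 4 with the groups compared alone and 2 to 5 without one array; with activin it had 0, and 1 without the narrow-spread arrays. Trim33-KD minus WT had 4 with the upper 50% of genes and 3 with the trended prior in place of 1, and 0 with the mean of probe sets, array weights, all probe sets, the groups compared alone, without the arrays named, and without any one array. The replicate block for all arrays ended the WT call of Lefty1 (2.81) and no other printed call. For Dand5 a floor of 64 gave no value.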
